A study of Zea mays with 21 samples.

Results

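Waterlogged roots of maize inbred line B73 were compared here at 2 time points of the early response, after 6 h (WS_6h) and after 2 h (WS_2h) of water standing above the substrate. The comparison was chosen by sample: it holds 3 libraries at each time point, 6 of the 21 libraries of a time course that ran from WS_0h (before the stress) to WS_12h. Each library held 10 primary root tips from seedlings at the second leaf stage, pooled as a replication. All seedlings were of the same line and grown in a greenhouse. Hours of waterlogging were the only labelled difference between the time points. WS_4h, the time point in between, was left out of the test because its libraries stand far from those of WS_2h and WS_6h, and its values are only set beside the results. WS_6h was also sampled later in the day than WS_2h, both in the light period, so hours of stress and time of day cannot be told apart. Levels are in TPM, a transcript level corrected for gene length and for the total of the library. A protein coding gene (PCgene) entered when its mean over these libraries exceeded 1 TPM, which 22075 of the 23175 listed PCgenes did. At that limit Zm00001d012923 was just inside with a mean of 1.0017 TPM and Zm00001d052082 just outside with 1.0 TPM.

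Oxygen moves slowly through water, so a waterlogged root soon has too little of it for respiration. ATP then comes mainly from glycolysis, which runs on only while NAD+ is restored, and plants restore it by fermentation: pyruvate decarboxylase turns pyruvate into acetaldehyde and alcohol dehydrogenase turns that into ethanol. In Arabidopsis and rice, ethylene and the group VII ethylene response factors of the AP2-EREBP family are known to switch on such genes in low oxygen. The question here is how far that response grew between 2 h and 6 h, and which genes were lowered over the same interval.

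Within a time point, the Pearson correlation of log2(TPM + 1) across PCgenes averaged from 0.977 to 0.984 for each WS_6h library against the other two, and from 0.949 to 0.965 for the WS_2h libraries. WS_2h replicate 1 stood apart: its correlation with the other WS_2h libraries was no higher than 0.950, and it lay nearest to a WS_8h library, at 0.962. For each of the other 5 libraries, the nearest library was a replicate of the same group. The median standard deviation of a PCgene over 3 replicates was 0.263 on the log2 scale at WS_2h and 0.170 at WS_6h. None of the 6 libraries correlated above 0.869 with any WS_4h library. Marker genes of root cell types were not paired with the gene IDs in the sources used here, so the labelled tissue was not checked against markers.

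From WS_2h to WS_6h, 700 PCgenes were up-regulated (3.17% of the 22075 tested) and 370 were down-regulated (1.68%), together 1070 (4.85%), by limma on log2(TPM + 1) with a Benjamini-Hochberg adjusted p under 0.05 and a difference above 1 on the log2 scale. In all 700 the 3 WS_6h libraries lay above the 3 WS_2h libraries, and in all 370 below them. The calls were made on these same libraries, so this separation largely follows from the choice and is no further evidence. Over all PCgenes tested, such separation was found upward in 15.4% and downward in 19.0%. Most steps were moderate. Of the up-regulated PCgenes, 608 differed by less than 2 on the log2 scale, 75 by 2 to 3 and 17 by more than 3, and of the down-regulated ones 350, 19 and 1. The median over all PCgenes tested was -0.05. The counts rested on single libraries: without WS_2h replicate 1 they were 592 up and 372 down, without WS_2h replicate 2 938 and 236, without WS_6h replicate 2 290 and 85, and without WS_6h replicate 3 324 and 77. In bulk root tips, fewer cells of a type and less RNA per cell cannot be told apart.

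**Figure D1:**
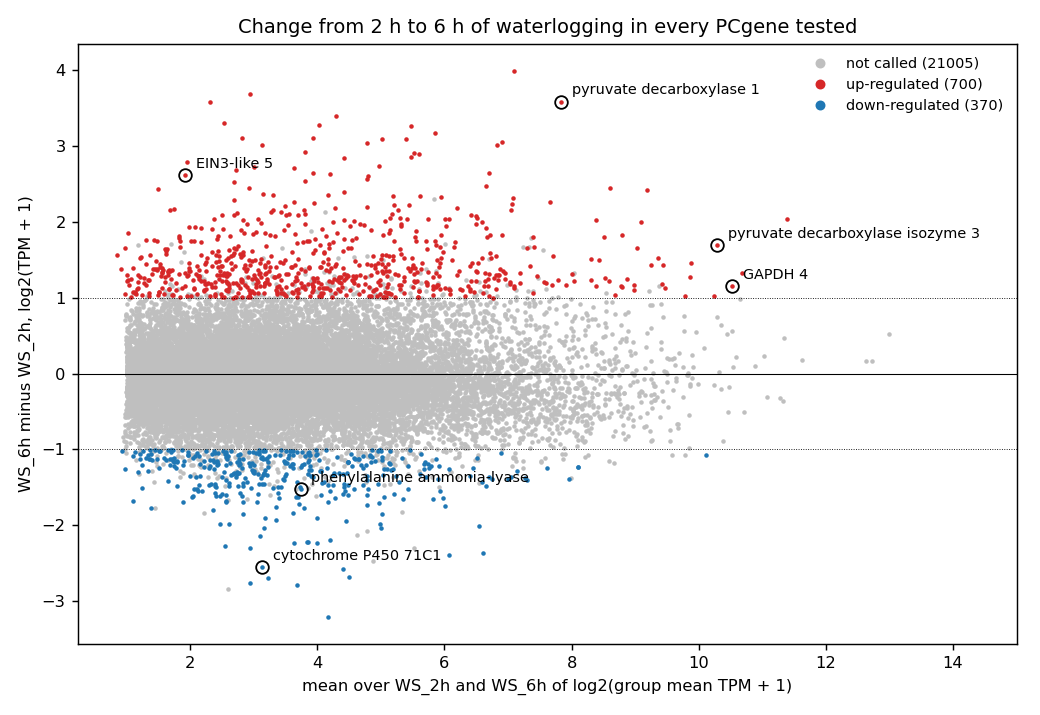
Each point is 1 of 22075 PCgenes, with log2(group mean TPM + 1), averaged over both time points, on the horizontal axis and the difference of WS_6h minus WS_2h in log2(TPM + 1) on the vertical axis. The 700 up-regulated PCgenes (red) lie at low and high levels and reach 3.98, the 370 down-regulated ones (blue) reach -3.20, and dotted lines mark a difference of 1 in either direction.

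The up-regulated PCgenes were not rare transcripts alone: 131 of them had a mean above 100 TPM at WS_6h, and 14 above 1000 TPM. Together they took 2.98%, 4.60% and 4.29% of all listed TPM in the WS_2h libraries and 10.65%, 11.12% and 11.72% in the WS_6h libraries. The median PCgene of this group stood at 3.30 TPM at WS_0h, 8.08 TPM at WS_2h and 23.5 TPM at WS_6h. In 72 of the 700 the WS_2h mean was below 1 TPM, and in 10 of these it passed 5 TPM at WS_6h. These 72 passed the filter only through the WS_6h libraries, where they were high. Likewise, 25 down-regulated PCgenes had a WS_6h mean below 1 TPM and passed only through WS_2h. Their calls thus partly follow from the filter. The down-regulated group took 2.16% ± 0.23 of listed TPM at WS_2h and 0.82% ± 0.16 at WS_6h (mean ± SD, n = 3). Its median PCgene stood at 19.5 TPM at WS_0h, 15.9 TPM at WS_2h and 5.19 TPM at WS_6h. These shares and medians describe groups that were chosen on the same libraries.

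The IDs of the values are paired with roles only through the text of the paper, which names 65 IDs. Of these, 60 are listed and 58 passed the filter. Across the 58, 16 were up-regulated, against 3.17% of all PCgenes tested, 6 were down-regulated, against 1.68%, and 36 were not called. The study chose them on these samples, so their direction is no independent evidence. They are described below by role.

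Of the named groups, ethanol fermentation had the highest median difference, 2.64 over its 2 genes. Both encode pyruvate decarboxylases. The paper's text gives no ID for an alcohol dehydrogenase, so that step was not covered. Both were up-regulated, against 3.17% of all PCgenes tested. Zm00001d010588, which encodes pyruvate decarboxylase 1, stood at 24.7, 102 and 85.2 TPM in the 3 WS_2h libraries and at 710, 690 and 797 TPM in the WS_6h libraries. Every WS_6h library was far above every WS_2h library, although WS_2h replicate 1 was well below the other two. The mean rose 10.4-fold, a difference of 3.58 ± 0.47 on the log2 scale (± SE; limma with Benjamini-Hochberg, adjusted p 0.00624), which held without any single library. Before the stress this transcript was at 0.24 to 0.33 TPM. Zm00001d028759, pyruvate decarboxylase isozyme 3, was already at 85.9, 85.9 and 90.9 TPM at WS_0h. It reached 579, 843 and 679 TPM at WS_2h and 2339, 2173 and 2210 TPM at WS_6h, again without overlap, and rose 3.20-fold (1.69 ± 0.24 on the log2 scale, limma adjusted p 0.00781; not called without WS_6h replicate 2, at 1.71 with adjusted p 0.0538). The summed TPM of both genes was 771 ± 170 at WS_2h and 2973 ± 97.8 at WS_6h (mean ± SD, n = 3).

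In glycolysis, 3 of 5 named genes were up-regulated, against 3.17% of all PCgenes tested, and the other two lay higher at WS_6h without a call. Zm00001d037689 encodes hexokinase7, the kinase that phosphorylates glucose on entry. It stood at 92.2, 226 and 180 TPM at WS_2h and 325, 396 and 455 TPM at WS_6h, a rise of 2.36-fold (1.32 ± 0.33 on the log2 scale, limma adjusted p 0.0487). Zm00001d034256, phosphohexose isomerase 1, which turns glucose 6-phosphate into fructose 6-phosphate, went from 178, 281 and 301 TPM to 499, 516 and 745 TPM (1.22 ± 0.27, limma adjusted p 0.034). Zm00001d017121, glyceraldehyde-3-phosphate dehydrogenase 4, the NAD+-using step, was the most abundant of the 5 at WS_6h, though not at WS_2h. It stood at 1320, 921 and 760 TPM at WS_2h and at 2210, 2126 and 2183 TPM at WS_6h (1.16 ± 0.27, limma adjusted p 0.0388), and WS_2h replicate 1, lowest for both pyruvate decarboxylases, was here the highest of its time point. These 3 calls lay close to the threshold. That of the isomerase was lost without any single library (0.99 to 1.37, highest limma adjusted p 0.143), that of hexokinase7 in all omissions but WS_2h replicate 2 (0.94 to 1.58, highest 0.176) and that of the dehydrogenase in all but WS_2h replicate 1 (0.98 to 1.38, highest 0.16). Without the filter on low values, hexokinase7 and the dehydrogenase were not called either (limma adjusted p 0.0591 and 0.0561), nor was hexokinase7 with a pseudocount of 0.1 TPM (0.0512). Aldolase2 (Zm00001d012103) differed by 0.63 (95% interval 0.06 to 1.21) and pyruvate kinase (Zm00001d052494) by 0.70 (0.27 to 1.12), with limma adjusted p of 0.145 and 0.0546. In both, all WS_6h libraries lay above all WS_2h libraries, as in 15.4% of all PCgenes tested. The summed TPM of the 5 genes was 2677 ± 413 at WS_2h and 5094 ± 124 at WS_6h (mean ± SD, n = 3). The median difference of the 7 genes of glycolysis and fermentation was 1.22, against -0.05 over all PCgenes.

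**Figure D2:**
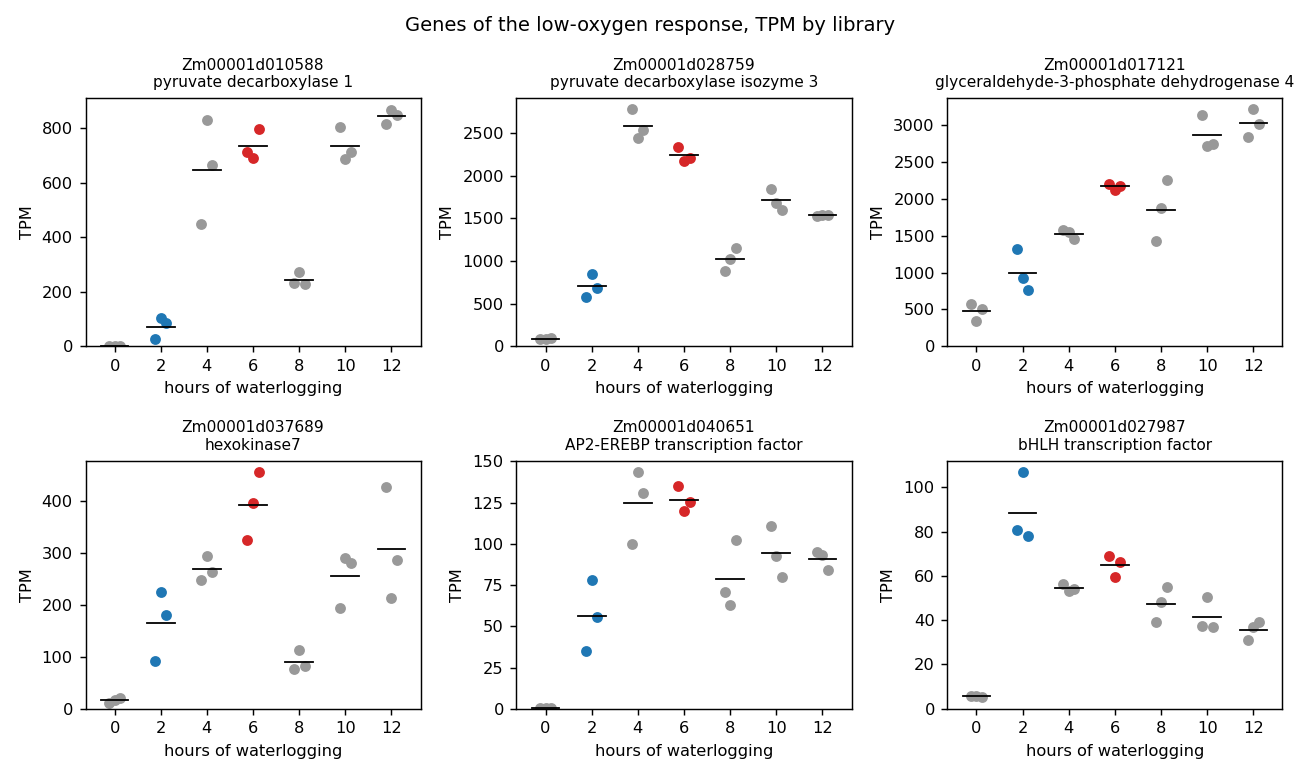
TPM of 6 PCgenes in each of the 21 libraries by hours of waterlogging, with WS_2h in blue, WS_6h in red, other time points in grey and a bar at the mean of 3 libraries. Pyruvate decarboxylase 1 climbs from 24.7 to 102 TPM at WS_2h to 690 to 797 TPM at WS_6h, while the bHLH gene Zm00001d027987 is higher at WS_2h (77.8 to 107 TPM) than at WS_6h (59.5 to 69.1 TPM).

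Of 15 tested transcription factors of 5 families, 7 were up-regulated (3.17% of all PCgenes tested were), 0 down-regulated (1.68%) and 8 not called, with a median difference of 0.84 against -0.05 over all. Both named AP2-EREBP genes rose. Zm00001d040651 went from 35.3, 78.2 and 55.5 TPM at WS_2h to 135, 120 and 125 TPM at WS_6h (1.22 ± 0.27 on the log2 scale, limma adjusted p 0.0334), and Zm00001d031728 from 5.79, 12.2 and 10.6 TPM to 25.7, 22.5 and 21.7 TPM (1.26 ± 0.25, adjusted p 0.0242). Before the stress neither had exceeded 0.66 TPM in any library. Without WS_2h replicate 1, which was the lowest WS_2h library for both, their differences were 0.93 and 0.97 and fell short of the fold threshold; both calls were also lost without any 1 WS_6h library (1.18 to 1.26 and 1.19 to 1.31), and the first without WS_2h replicate 3 (1.25). With a pseudocount of 5 TPM, Zm00001d031728 was not called (0.99).

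The bHLH family, whose proteins bind DNA as dimers, held both kinds of behaviour. Zm00001d042263 stood at 6.71, 7.63 and 6.01 TPM at WS_2h and 23.4, 25.01 and 26.6 TPM at WS_6h, with little spread at either time point. Its difference of 1.74 ± 0.15 (limma adjusted p 0.00156) held without any single library. Zm00001d013130 rose from 0.55, 1.16 and 1.28 TPM to 3.41, 3.30 and 4.99 TPM (1.30 ± 0.21, adjusted p 0.0125; not called without WS_6h replicate 3, at 1.15, or with a pseudocount of 5 TPM, at 0.57). Its WS_2h mean was 0.997 TPM, so it passed the filter only through WS_6h. Zm00001d027987 behaved otherwise. It stood at 5.22 to 5.98 TPM at WS_0h, at 80.8, 107 and 77.8 TPM at WS_2h and at 69.1, 59.5 and 66.4 TPM at WS_6h. All its WS_6h libraries lay below all its WS_2h libraries, as in 19.0% of all PCgenes tested. Its difference of -0.43 (95% interval -0.84 to -0.01) was not called (limma adjusted p 0.171). Zm00001d043699 differed by 0.84 (adjusted p 0.0627), and was called without WS_2h replicate 2 (1.06).

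Of 4 bZIP genes, another family of dimeric DNA-binding proteins, 3 were up-regulated, against 3.17% of all PCgenes tested. Zm00001d005962 went from 8.65, 17.6 and 10.5 TPM to 31.6, 29.3 and 25.8 TPM (1.23 ± 0.25, limma adjusted p 0.0249), Zm00001d039065 from 3.43, 4.93 and 5.38 TPM to 9.35, 13.0 and 15.3 TPM (1.27 ± 0.22, adjusted p 0.0155). Zm00001d017911 stayed low, at 2.29, 1.19 and 1.03 TPM and then 5.14, 4.58 and 3.45 TPM (1.13 ± 0.22, adjusted p 0.0241). All of these calls were lost without WS_6h replicate 2 (1.22, 1.24 and 1.10) or WS_6h replicate 3 (1.31, 1.13 and 1.26). The first and the last were also lost without WS_6h replicate 1 (1.16 and 1.03) or WS_2h replicate 3 (1.15 and 0.99), and the last without WS_2h replicate 2 (1.05). With a pseudocount of 5 TPM, Zm00001d039065 (0.86) and Zm00001d017911 (0.53) were not called. Zm00001d041920, named PosF21, differed by 0.65 (adjusted p 0.111).

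None of the 3 tested NAC genes, members of a plant-specific family with many stress-responsive genes, was called, against 4.85% of all PCgenes tested. Zm00001d000112 stood at 15.4 to 26.1 TPM at WS_0h, at 66.3, 128 and 107 TPM at WS_2h and at 116, 105 and 86.6 TPM at WS_6h. The groups overlapped, and the difference was 0.07 with a 95% interval of -0.53 to 0.68. Zm00001d012527 had one low library at WS_2h, replicate 1 with 21.7 TPM, while the other two (89.1 and 89.5 TPM) lay within the WS_6h range of 83.9 to 99.4 TPM. Its difference of 0.69 was 0.03 without that library. Zm00001d013003 was the most abundant, at 185, 449 and 332 TPM and then 511, 539 and 515 TPM, without overlap but also without a call (0.78, limma adjusted p 0.154). Such separation upward was found in 15.4% of all PCgenes tested.

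The 2 named MYB genes had negative differences without a call (4.85% of all PCgenes tested were called). Zm00001d011669 stood at 5.35, 6.21 and 4.35 TPM at WS_2h and 3.22, 2.28 and 1.47 TPM at WS_6h, after 8.51 to 14.5 TPM at WS_0h. Its adjusted p was 0.0396 by limma, but its difference of -0.95 did not reach the fold threshold. Without WS_6h replicate 1 it did, at -1.14, and also with a pseudocount of 0.1 TPM. Zm00001d035918 had 1.38, 2.24 and 1.05 TPM and then 0.96, 0.40 and 0.19 TPM (-0.76, adjusted p 0.0903). Its WS_6h mean was 0.517 TPM, so it passed the filter only through WS_2h.

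A group of 6 genes was assembled here around ethylene signalling. It joins the RING finger, SKP1-like, RING/U-box and TUB genes with 2 ETHYLENE INSENSITIVE 3-like genes that the paper names under MAPK signalling. In this group 3 were up-regulated (3.17% of all PCgenes tested were), and all 6 had positive differences, as had 9828 of the 22075 over all (median 0.94). Zm00001d016924 encodes an ETHYLENE INSENSITIVE 3-like protein, of the family of transcription factors that act at the end of the ethylene pathway. It stood at 0.02 to 0.08 TPM at WS_0h, 0.37, 0.81 and 0.38 TPM at WS_2h and 6.26, 10.97 and 7.98 TPM at WS_6h. The difference of 2.61 ± 0.22 (limma adjusted p 0.00149) held without any single library, and most of the level of this gene appeared after WS_2h. Its WS_2h mean was 0.52 TPM, so it passed the filter only through WS_6h. A second gene of this family, Zm00001d020939, was more abundant throughout and overlapped between the groups (13.9 to 30.2 TPM and 29.5 to 40.8 TPM; difference 0.59, 95% interval -0.07 to 1.25). The RING finger gene Zm00001d027622 went from 16.6, 31.4 and 23.9 TPM to 53.6, 59.4 and 62.7 TPM (1.30 ± 0.23, limma adjusted p 0.0172), and the TUB transcription factor Zm00001d002896 from 36.5, 57.7 and 58.3 TPM to 99.1, 111 and 116 TPM (1.11 ± 0.22, adjusted p 0.0225). Both calls were lost without WS_6h replicate 2 (1.29 and 1.09) or WS_6h replicate 3 (1.25 and 1.06), and the second also without WS_2h replicate 1 (0.89). The RING/U-box gene Zm00001d032849 and the SKP1-like gene Zm00001d027302 differed by 0.78 and 0.60 without a call. In both, all WS_6h libraries lay above those of WS_2h, as in 15.4% of all PCgenes tested.

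Genes for the synthesis of ethylene and abscisic acid showed no call among 5 tested, with a median difference of 0.15. Of all PCgenes tested, 4.85% were called, so no call is the usual outcome for so few genes. ACC synthase (Zm00001d026060) makes the precursor of ethylene. It stood at 16.0, 33.9 and 23.5 TPM at WS_2h and 28.3, 26.2 and 20.3 TPM at WS_6h, a difference of 0.07 (95% interval -0.54 to 0.69). The ACC oxidase Zm00001d024843, which catalyses the last step, had 31.5, 58.5 and 33.8 TPM and then 53.2, 61.5 and 40.6 TPM (0.35, 95% interval -0.26 to 0.97). The ACC oxidases Zm00001d024850 and Zm00001d024851 did not exceed 2.56 TPM in any of the 6 libraries, and Zm00001d024852 did not pass the filter. Zm00001d018819, nine-cis-epoxycarotenoid dioxygenase 5, an enzyme of abscisic acid synthesis, differed by -0.43 (-1.18 to 0.32), at 0.98 to 4.12 TPM. Of the 6 genes named for MAPK signalling, only the ETHYLENE INSENSITIVE 3-like gene Zm00001d016924 was called, against 4.85% of all PCgenes tested. The kinase SAPK4 (Zm00001d012263) differed by 0.21 (-0.25 to 0.67) and CAPIP1 (Zm00001d037719) by 0.63 (0.21 to 1.04, limma adjusted p 0.0673).

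**Figure D3:**
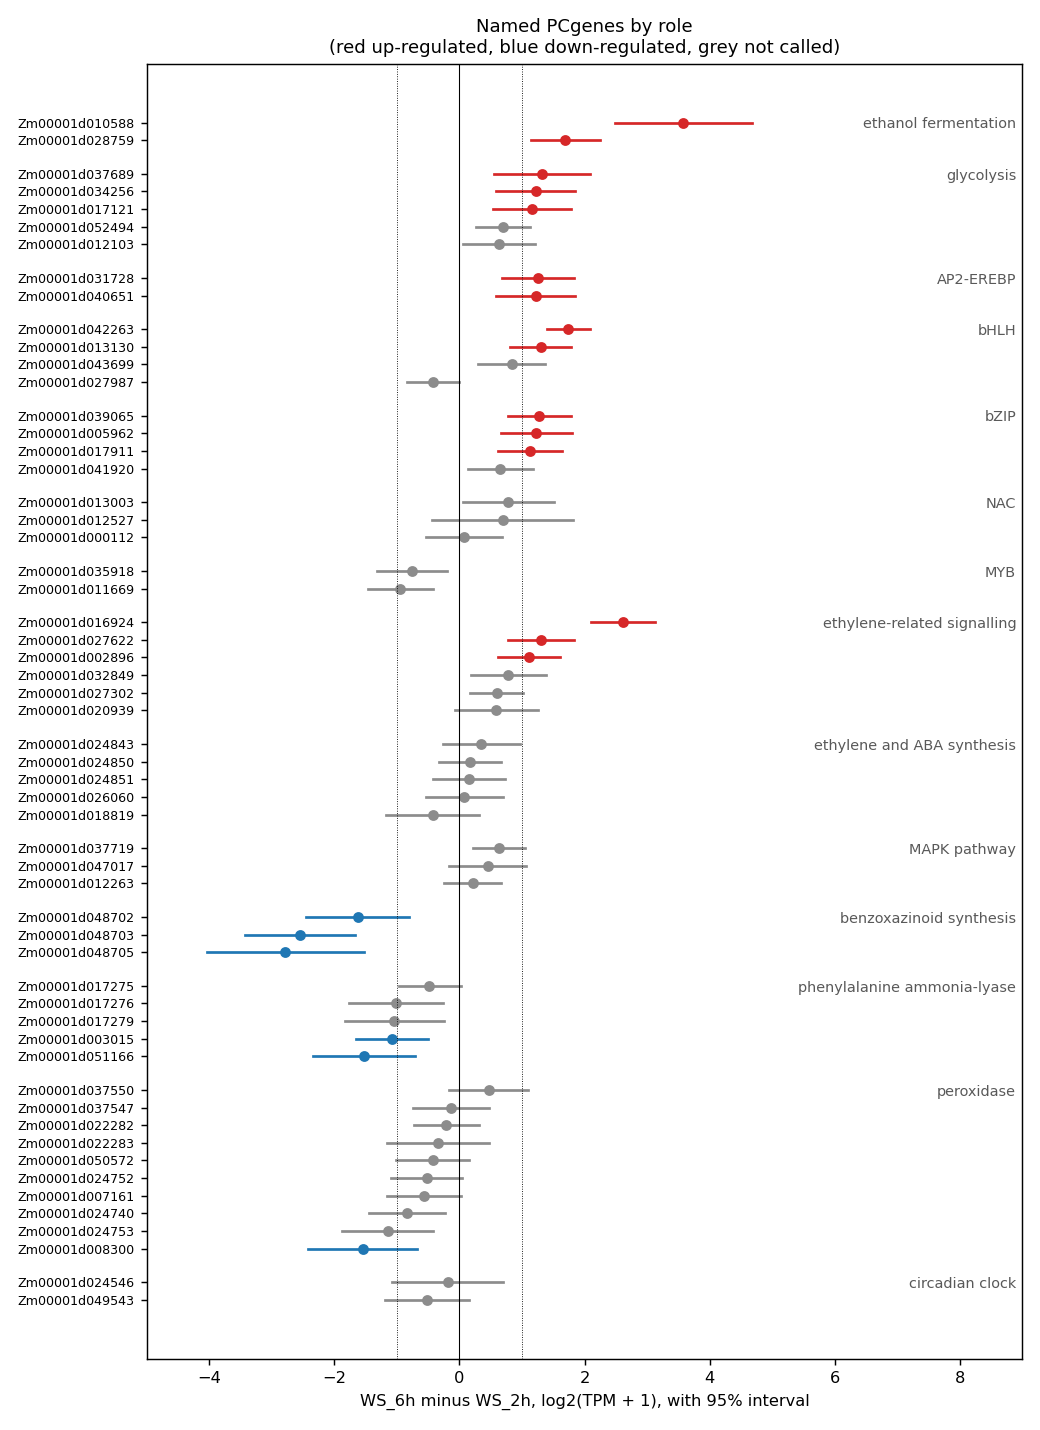
Difference of WS_6h minus WS_2h in log2(TPM + 1) for the named PCgenes with a role, grouped by role, with points for the limma estimate, lines for its 95% interval and dotted lines at 1 in either direction. A gene named under 2 roles is drawn once. Pyruvate decarboxylase 1 leads the increases at 3.58, the 3 benzoxazinoid genes lie at -1.62 to -2.79, and most peroxidases lie between -0.84 and 0.47 without a call.

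Benzoxazinoids are defence compounds of grasses that are made from indole through a series of cytochrome P450 enzymes, and their genes fell furthest among the named groups. All 3 tested were down-regulated, against 1.68% of all PCgenes tested. Zm00001d048703 (cytochrome P450 71C1) stood at 32.1, 9.82 and 21.2 TPM at WS_2h and at 3.12, 2.62 and 1.65 TPM at WS_6h. The WS_2h libraries differed among themselves by more than 3-fold, yet none reached down to the WS_6h range. The mean was 8.55-fold lower at WS_6h (-2.55 ± 0.38 on the log2 scale, limma adjusted p 0.00955), and the call held without any single library. Zm00001d048705 (cytochrome P450 71C3) went from 64.0, 12.0 and 29.7 TPM to 4.04, 4.77 and 1.72 TPM (-2.79 ± 0.54, adjusted p 0.023), and Zm00001d048702 (an indolin-2-one monooxygenase-like protein) from 34.9, 11.1 and 22.7 TPM to 7.20, 5.97 and 5.10 TPM (-1.62 ± 0.36, adjusted p 0.0325). In all 3 genes WS_2h replicate 1 was highest and replicate 2 lowest of its time point. Both calls were lost without WS_2h replicate 3 (-2.76 and -1.56), WS_6h replicate 2 (-3.0 and -1.62) or WS_6h replicate 3 (-2.46 and -1.52), and the second also without WS_6h replicate 1 (-1.73). At WS_0h the 3 genes had summed to 196 ± 52.2 TPM, against 79.2 ± 49.3 TPM at WS_2h and 12.1 ± 3.15 TPM at WS_6h (mean ± SD, n = 3).

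Phenylalanine ammonia-lyase opens the phenylpropanoid pathway that leads to lignin and phenolic defence compounds. All 5 genes had negative differences (median -1.04; 12247 of the 22075 over all were negative), of which 2 were called, against 1.68% of all PCgenes tested. The count was 1 with a pseudocount of 5 TPM, 3 in a fit of all 21 libraries and 4 in a fit of the 18 without WS_4h. Zm00001d051166 went from 18.6, 29.8 and 15.5 TPM to 9.77, 7.68 and 3.48 TPM (-1.52 ± 0.35, limma adjusted p 0.0378), and Zm00001d003015 from 17.0, 17.6 and 13.0 TPM to 8.48, 8.78 and 4.42 TPM (-1.08 ± 0.25, adjusted p 0.0388). At WS_0h they had stood at 15.3 to 20.1 TPM and 13.8 to 18.8 TPM, which overlaps with WS_2h in both. Both calls were weak, that of Zm00001d003015 lost without any single library (-0.80 to -1.22) and that of Zm00001d051166 in all omissions but WS_6h replicate 1 (-1.15 to -1.79). Zm00001d017276 and Zm00001d017279 differed by -1.02 and -1.04 with limma adjusted p of 0.0895 and 0.096. The most abundant member, Zm00001d017275, differed least, at 224, 281 and 188 TPM and then 185, 169 and 139 TPM (-0.48, 95% interval -0.97 to 0.02). In all 5 genes WS_6h replicate 3 was the lowest of the 6 libraries.

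Class III peroxidases of plants act in lignin formation and on hydrogen peroxide. Of 10 tested, 1 was down-regulated (1.68% of all PCgenes tested were) and 9 were not called. Their median was -0.47, and 9 differences were negative, as were 12247 of the 22075 over all. Zm00001d008300 stood at 119, 108 and 73.1 TPM at WS_2h and at 54.4, 35.7 and 18.1 TPM at WS_6h (-1.55 ± 0.38, limma adjusted p 0.0432). The call was lost in all omissions but WS_6h replicate 1 (-1.14 to -1.90), and without the filter on low values (limma adjusted p 0.0541). Zm00001d024753 differed by -1.15 with an adjusted p of 0.0582 and was called without WS_6h replicate 1 (-1.49) and in the fits of 21 and 18 libraries (limma adjusted p 0.0438 and 0.0167). The most abundant peroxidase, Zm00001d037547, had 303, 347 and 237 TPM and then 350, 271 and 199 TPM (-0.13, 95% interval -0.74 to 0.47), and the only positive value in this list was 0.47 for Zm00001d037550. The paper names the IDs of this list among down-regulated genes. It also reports a set of up-regulated genes that all encode peroxidase, in a co-expression module linked to WS_12h. Its text does not list their IDs, so they are missing here and the list does not describe the whole family. Zm00001d029280, described below, belongs to that module, but the text does not say whether it is a peroxidase.

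**Figure D4:**
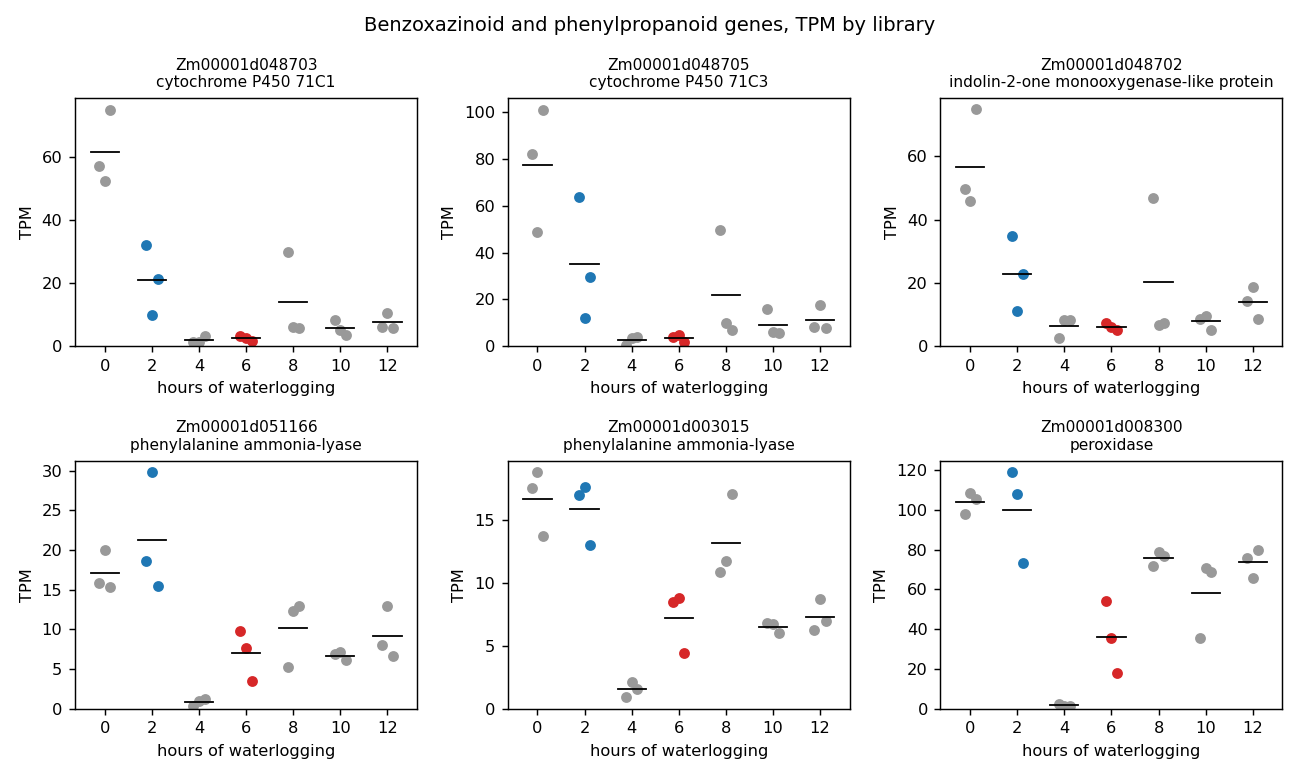
TPM of 3 benzoxazinoid genes, 2 phenylalanine ammonia-lyase genes and 1 peroxidase in each of the 21 libraries by hours of waterlogging, with WS_2h in blue, WS_6h in red, other time points in grey and a bar at the mean. The benzoxazinoid genes are at 9.82 to 64.0 TPM at WS_2h and at 1.65 to 7.20 TPM at WS_6h, and for the other 3 genes WS_2h overlaps with WS_0h and lies above WS_6h.

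The clock genes bear on the time of day. CCA1 (Zm00001d049543) and LHY (Zm00001d024546), morning components of the circadian clock, were not called. CCA1 stood at 8.49, 17.6 and 19.3 TPM at WS_2h and at 8.08, 9.59 and 11.7 TPM at WS_6h (-0.52, 95% interval -1.19 to 0.16), and LHY at 5.43, 16.4 and 17.8 TPM and at 8.83, 9.81 and 12.3 TPM (-0.19, -1.08 to 0.70). For both, WS_2h replicate 1 was the lowest WS_2h library. Without it the differences were -0.86 and -0.69, below the fold threshold, with limma adjusted p of 0.0288 and 0.0479. Their part in the other results was not tested.

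The largest increase and the largest decrease were those of genes without a role in the sources used here. Zm00001d022084 stood at 0.05 to 0.20 TPM at WS_0h, at 26.2, 39.6 and 34.9 TPM at WS_2h and at 558, 478 and 587 TPM at WS_6h, a 16.1-fold increase (3.98 ± 0.20 on the log2 scale, limma adjusted p 3.89e-04). Zm00001d025727 was still at 0.74, 1.30 and 1.34 TPM at WS_2h and reached 21.9, 24.97 and 32.7 TPM (3.69 ± 0.20, adjusted p 3.89e-04). Zm00001d026412 went from 78.2, 45.2 and 40.9 TPM to 5.66, 4.23 and 4.65 TPM (-3.20 ± 0.25, adjusted p 0.00112), after 44.7 to 69.3 TPM at WS_0h. Zm00001d033595 went from 18.8, 24.2 and 14.6 TPM to 2.58, 1.78 and 1.49 TPM (-2.76 ± 0.22, adjusted p 0.00118). For both of the last genes WS_2h overlapped with WS_0h (17.8 to 30.5 TPM for Zm00001d033595), and all 4 calls held without any single library. Zm00001d029280, of the co-expression module named above with the peroxidases, was selected by the study for measurement in other inbred lines. It rose from 6.76, 4.30 and 3.49 TPM to 41.5, 26.4 and 30.1 TPM (2.54 ± 0.25, limma adjusted p 0.0027).

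The libraries that were not used in the comparison show where these PCgenes stood at the other time points. At WS_4h, the median PCgene of the up-regulated group was at 25.1 TPM, close to the 23.5 TPM of WS_6h. For 292 of the 700 (41.7%, against 11.2% of all) the WS_4h mean lay between the means of WS_2h and WS_6h. It lay above both for 327 (46.7%, against 40.1%) and below both for 81 (11.6%, against 48.7%). A wider gap between WS_2h and WS_6h leaves more room between them, and these PCgenes were chosen for that gap. The down-regulated group was lower at WS_4h than at either of the 2 time points for 329 of 370 PCgenes (88.9%, against 48.7% of all), with a median of 1.88 TPM at WS_4h and 5.19 TPM at WS_6h. These positions describe the 3 WS_4h libraries and no steady course.

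WS_8h, WS_10h and WS_12h were set against WS_0h, none of which entered the choice of the groups, although the 3 comparisons share the WS_0h libraries. Of the PCgenes up-regulated from WS_2h to WS_6h, 95.3% had a mean above WS_0h at WS_8h, 99.3% at WS_10h and 99.1% at WS_12h, against 47.2%, 45.9% and 43.7% of all PCgenes tested. Their median difference from WS_0h was 1.22 at WS_8h (1.08, 1.18 and 1.46 in the 3 libraries), 2.02 at WS_10h and 2.04 at WS_12h. Of the down-regulated PCgenes, 3.8%, 4.6% and 3.0% lay above WS_0h at these time points, with medians of -1.10, -1.40 and -1.31. The medians of both groups moved with the WS_6h libraries that chose them. Without WS_6h replicate 2, the down-regulated group held 85 PCgenes, with medians of -1.39, -2.28 and -2.16 at WS_8h, WS_10h and WS_12h. Without WS_6h replicate 3, it held 77, with medians of -1.41, -2.25 and -2.11. The up-regulated group then held 290 and 324 PCgenes, with medians of 2.54 and 2.34 at WS_10h. These are smaller groups, chosen more strictly. The up-regulated group thus stood lower at WS_8h than at WS_10h and WS_12h in every library. Pyruvate decarboxylase 1 (Zm00001d010588) had a mean of 243 TPM at WS_8h and 733 TPM at WS_10h, and hexokinase7 (Zm00001d037689) 90.7 and 256 TPM. Not all named genes had this order: the bHLH gene Zm00001d027987 had 47.5 and 41.6 TPM.

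**Figure D5:**
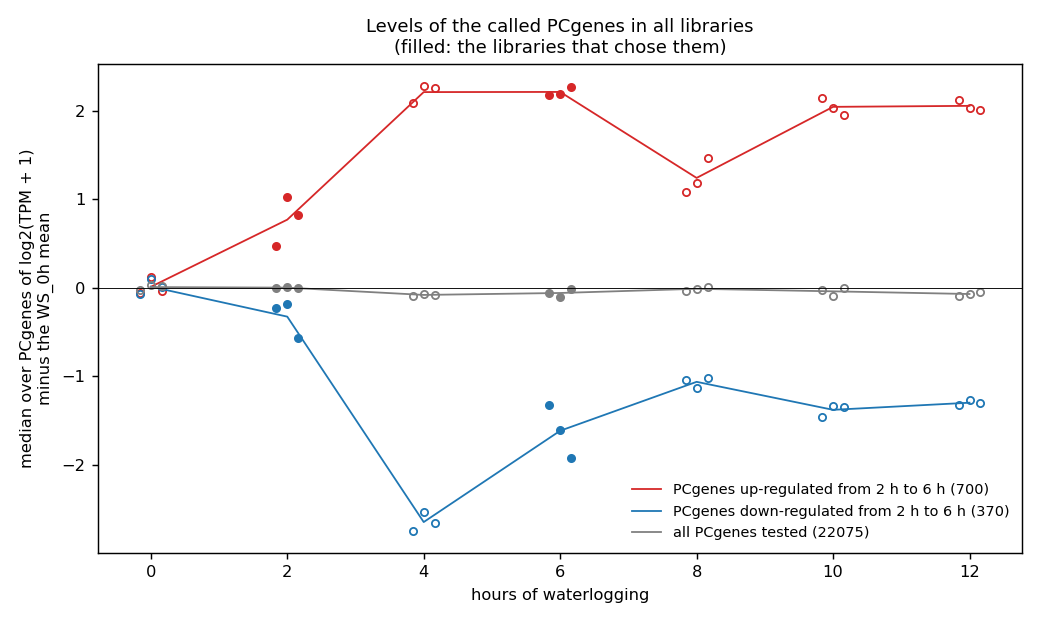
Median over PCgenes of log2(TPM + 1) minus the WS_0h mean, one point per library, for the 700 up-regulated (red), the 370 down-regulated (blue) and all 22075 tested PCgenes (grey), with lines through the means of 3 libraries. Filled points are the libraries that chose the groups; in the open ones after WS_6h, the red group lies at 1.08 to 1.46 at WS_8h and at 1.95 to 2.15 at WS_10h and WS_12h, and the blue group between -1.02 and -1.46.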

How the data were processed

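RNA-seq values of PCgenes in 21 libraries were used, 3 at each of 7 time points, grouped by their labels. After quality control (FastQC) and trimming (Trimmomatic), the authors mapped reads on the B73 RefGen_v4 assembly by HISAT2 2.0.5 (version from the submitters' processing notes) and deposited TPM that they made from featureCounts read counts. Read depth is not kept in TPM, so no counting error is given, and precision rests on 3 libraries of mixed root tips. The lncRNA table was not used here.

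WS_6h was compared with WS_2h on log2(TPM + 1) with limma 3.58.1 in R 4.3.3, with the 6 libraries, a mean-variance trend, no replicate block and Benjamini-Hochberg adjustment over 22075 PCgenes. Fold differences on this scale understate the change of low genes. In a simulation built on the replicate spread of each PCgene (22075 PCgenes, 50 changed at each size, all above 3 in mean log2(TPM + 1)), 70% of changes of 1.5, 80% of 2 and 98% of 3 were called, with 1 false call. The simulated spread was independent between PCgenes and libraries, whereas the real libraries shared deviations. The simulation therefore does not give the number of false calls in the real libraries. Named genes are all IDs in the text of the paper, and the 2 largest differences in each direction without a role; the 10 largest in each direction were ranked. None of the 23175 IDs matched the RefSeq table at hand, so lists that needed annotation, and cell type markers, were not filled. Members and lists were chosen with earlier results of these data known. Figures used Python 3.11.15 and matplotlib 3.10.9. Alternatives were other pseudocounts, filters, fits and scaling, a replicate block and leaving out each library.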

Additional observations from a re-analysis of the deposited data

How the results depend on the processing

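A pseudocount of 5 TPM gave 380 up- and 145 down-regulated PCgenes, and a replicate block 759 and 560, instead of 700 and 370. The deviations of same-numbered libraries correlated at 0.381, 0.028 and 0.583 for replicates 1, 2 and 3. WS_2h replicate 3 correlated at -0.592 with WS_6h replicate 1, and WS_2h replicate 1 at -0.362 with WS_6h replicate 3. The other unlike-numbered pairs lay from -0.056 to 0.038. Deviations from the mean of 3 libraries are not independent, so replicates 1 and 3 do not count as separate matches. The values describe a contrast between replicates 1 and 3 that both time points shared, with little part of replicate 2. The labels do not say what a replicate number stands for, and the block was kept as an alternative only. With the block, the ammonia-lyases Zm00001d017276 and Zm00001d017279 (limma adjusted p 0.0326 and 0.0279) and the peroxidase Zm00001d024753 (0.0212) were called as well, and no call of a named gene was lost. Leaving out 1 library gave 290 to 938 up- and 77 to 542 down-regulated PCgenes, and the cause was not tested. The other counts, from fits of all 21 libraries or of 18 without WS_4h, no trend, rescaling, a pseudocount of 0.1 TPM and other filters, stayed within 1.5 times, and 0 PCgenes changed direction between calls under any of the 15 alternatives. Of 26 called named PCgenes, 9 kept their call without any single library and 16 lost it without WS_6h replicate 2, as did 16 without WS_6h replicate 3. Among the 9 are the 2 largest differences in each direction without a role, which were picked by size in these libraries. The share kept is therefore lower among the PCgenes that the paper names. Signs turned only in uncalled genes: Zm00001d000112 (-0.20 without WS_2h replicate 1, -0.02 without WS_6h replicate 1, up to 0.27 otherwise), Zm00001d026060 (-0.19 and -0.02 likewise, up to 0.33), Zm00001d024546 (0.03 without WS_2h replicate 2, 0.09 without replicate 3, down to -0.69), Zm00001d024850 (0) and Zm00001d024851 (-0.08) without WS_2h replicate 3 (up to 0.33 and 0.34), and Zm00001d022282 (0.04) and Zm00001d037547 (0.07) without WS_6h replicate 3 (down to -0.36 and -0.33). Against WS_0h, the median of the up-regulated group ranged over the settings from 0.997 to 1.75 at WS_8h, 1.83 to 2.79 at WS_10h and 1.86 to 2.78 at WS_12h, and that of the down-regulated group from -0.84 to -1.41, -1.10 to -2.28 and -0.996 to -2.16.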
